A study of Mus musculus with 4 samples.

Results

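The genes described here are *Il4*, *Il5* and *Il13*, which encode the type 2 cytokines, *Areg*, which encodes the growth factor amphiregulin, *Il1rl1* and *Il17rb*, which encode receptor chains for the alarmins IL-33 and IL-25, *Gata3*, a transcription factor of type 2 lymphocytes, and *Il4ra*, the receptor chain shared by IL-4 and IL-13. They were taken by name, 8 genes of the 19491 listed in any library, and none of them was used to sort cells into classes. CD45+ cells, that is, immune cells of blood and tissue with microglia among them, had been sorted from the dura mater or the brain. The mice were 8-week-old C57BL/6J, 3 days after surgery. They came from a sham group (S3) and a group given photothrombotic injury (PTI, D3), in which light and a dye clot the vessels of the meninges and the cortex beneath. No transgene or drug is named for these libraries. The RNA of single cells was counted on the 10× Chromium platform with unique molecular identifiers (UMIs), in 4 libraries, 1 for each tissue and operation, and the number of mice in a library is not given in the text of the study. With 1 library per condition there is no spread between mice to set a difference against, so no test was made, no P value is given, and a D3 to S3 difference cannot be told apart from a difference between 2 libraries.

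IL-4, IL-5 and IL-13 are the cytokines of allergic and anti-helminth immunity. They are made by TH2 cells, mast cells, basophils and group 2 innate lymphoid cells (ILC2s), tissue-resident lymphocytes without an antigen receptor that also release amphiregulin, an epidermal growth factor receptor ligand linked to tissue repair. IL-33 and IL-25, set free by stressed or dying barrier cells, reach these cells through ST2 (*Il1rl1*) and IL-17RB, and IL-4 and IL-13 then act on macrophages and many other cells through IL-4Rα. The meninges are known to house ILC2s and mast cells.

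*Il4*, *Il13* and *Il5* are neighbours on chromosome 11 of the mouse. In the GRCm38 assembly with GENCODE vM21 genes, *Il4* (ENSMUSG00000000869) spans chr11:53602982-53618669 and *Il13* (ENSMUSG00000020383) chr11:53631324-53634702, both on the minus strand, and *Il5* (ENSMUSG00000036117) spans chr11:53720794-53725106 on the plus strand. The gap between *Il4* and *Il13* is 12.7 kb and the gap between *Il13* and *Il5* is 86.1 kb, which holds *Rad50*, a DNA repair gene. The other genes are scattered, with *Il1rl1* (ENSMUSG00000026069) at chr1:40429570-40465415 on the plus strand, *Gata3* (ENSMUSG00000015619) at chr2:9857078-9890034 on the minus strand, *Areg* (ENSMUSG00000029378) at chr5:91139599-91148432 on the plus strand, *Il4ra* (ENSMUSG00000030748) at chr7:125552120-125579474 on the plus strand and *Il17rb* (ENSMUSG00000015966) at chr14:29996135-30008896 on the minus strand. Because *Gata3* is itself a member and these cytokine genes are textbook targets of its protein, the 250 bases before each RefSeq transcription start in GRCm38.p6 were searched for the letters AGATAA, its variant AGATAG, the letters TGATAA and their variant TGATAG on either strand. The 8 genes have 10 such windows and 5 of them hold a match, beside 26.5% of all 32851 promoter windows. The windows of *Il5* (chr11:53720544-53720793, plus strand), *Il13* (chr11:53634703-53634952, minus strand), the inner start of *Il4* (chr11:53617339-53617588, minus strand) and the outer start of *Il1rl1* (chr1:40429320-40429569, plus strand) are shown because the first 3 belong to the linked cytokines and the last holds the most matches, with each match in capitals and every sequence written 5′ to 3′ on the strand of its gene.
Il5: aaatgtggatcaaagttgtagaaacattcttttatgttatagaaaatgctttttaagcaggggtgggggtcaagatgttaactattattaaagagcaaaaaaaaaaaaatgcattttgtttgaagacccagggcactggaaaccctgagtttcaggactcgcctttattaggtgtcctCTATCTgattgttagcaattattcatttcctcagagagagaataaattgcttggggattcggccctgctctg
Il13: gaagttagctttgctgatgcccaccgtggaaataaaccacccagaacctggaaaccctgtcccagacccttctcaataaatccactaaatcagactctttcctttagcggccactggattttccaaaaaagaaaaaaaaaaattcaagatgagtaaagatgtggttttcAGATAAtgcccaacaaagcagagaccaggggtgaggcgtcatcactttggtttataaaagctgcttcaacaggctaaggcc
Il4: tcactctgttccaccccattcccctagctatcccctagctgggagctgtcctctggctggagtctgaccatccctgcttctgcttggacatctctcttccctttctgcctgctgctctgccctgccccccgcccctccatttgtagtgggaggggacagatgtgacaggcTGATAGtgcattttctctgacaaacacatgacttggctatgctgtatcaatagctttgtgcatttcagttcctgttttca
Il1rl1: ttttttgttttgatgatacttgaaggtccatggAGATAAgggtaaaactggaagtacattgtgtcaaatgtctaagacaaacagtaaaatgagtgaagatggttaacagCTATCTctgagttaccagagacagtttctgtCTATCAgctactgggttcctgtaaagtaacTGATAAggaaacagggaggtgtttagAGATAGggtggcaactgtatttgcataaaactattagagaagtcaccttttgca
The single match lies 72 bases before the start of *Il5*, 81 bases before that of *Il13* and 80 bases before the inner start of *Il4*. The outer *Il1rl1* window holds 5 matches between 217 and 54 bases before the start, a number reached by 14 of all windows, or 0.0426%. Its inner window holds 1, and the windows of *Gata3*, *Areg*, *Il4ra* and *Il17rb* and the outer *Il4* window hold none. A match is a run of letters and not a measured binding site.

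After filters, 3618 cells of brain S3, 4438 of brain D3, 3439 of dura mater S3 and 2603 of dura mater D3 remained, with a median of 8252, 14269.5, 9320 and 14156 UMIs per cell and no more than 7 barcodes shared by any pair of libraries. Of these 14098 cells, 12459 were placed in a class by markers that include none of the 8 genes. ILC2s, taken by *Il7r*, *Rora*, *Hs3st1* and similar genes, were 76 cells in brain S3, 20 in brain D3, 96 in dura mater S3 and 122 in dura mater D3. The gate allowed an ILC2 at most 1 UMI of *Cd3d* and *Cd3e*, so a low *Cd3e* count was set in advance and is no check of the class. *Cd3e*, a part of every T cell receptor, had a UMI in 4 or fewer of the ILC2s of any library. The T cell receptor gene *Trbc2* had one in 65.0% to 90.8% of them, and *Ptgdr2*, a receptor often used to mark ILC2s, had none. Mast cells were 108 and 94 cells in dura mater S3 and D3, all with UMIs of *Cpa3* and *Kit*, which are among the markers that placed them. They were only 1 cell in brain S3 and none in brain D3, so that mast cells are described for the dura mater alone. Basophils were 6 cells and 1 cell in the dura mater, and eosinophils were 1 cell each in dura mater S3 and brain D3. Of the 8 genes, *Gata3* and *Areg* were also among the 10 genes that led the ILC2 class.

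ILC2s and mast cells held most UMIs of the type 2 cytokines in the dura mater while making up a small share of its cells. In the dura mater at D3, ILC2s were 4.69% of kept cells and mast cells 3.61%, yet ILC2s held 97.2% of all *Il5* UMIs, 50.5% of those of *Il13* and 75.2% of those of *Areg*, and mast cells held 75.6% of those of *Il4*, 45.1% of those of *Il13* and 60.2% of those of *Il1rl1*. *Il4ra* was spread differently, with 56.2% of its UMIs in border macrophages, the perivascular and meningeal macrophages marked by *Mrc1* and *Lyve1*. Levels below are UMIs of a gene in every 1000000 UMIs of all cells in a class (CPM), with the exact Poisson 95% interval in brackets. Shares of cells carry exact Clopper-Pearson 95% intervals, and all intervals cover counting error only. They are too narrow where few cells hold most UMIs.

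**Figure D1:**
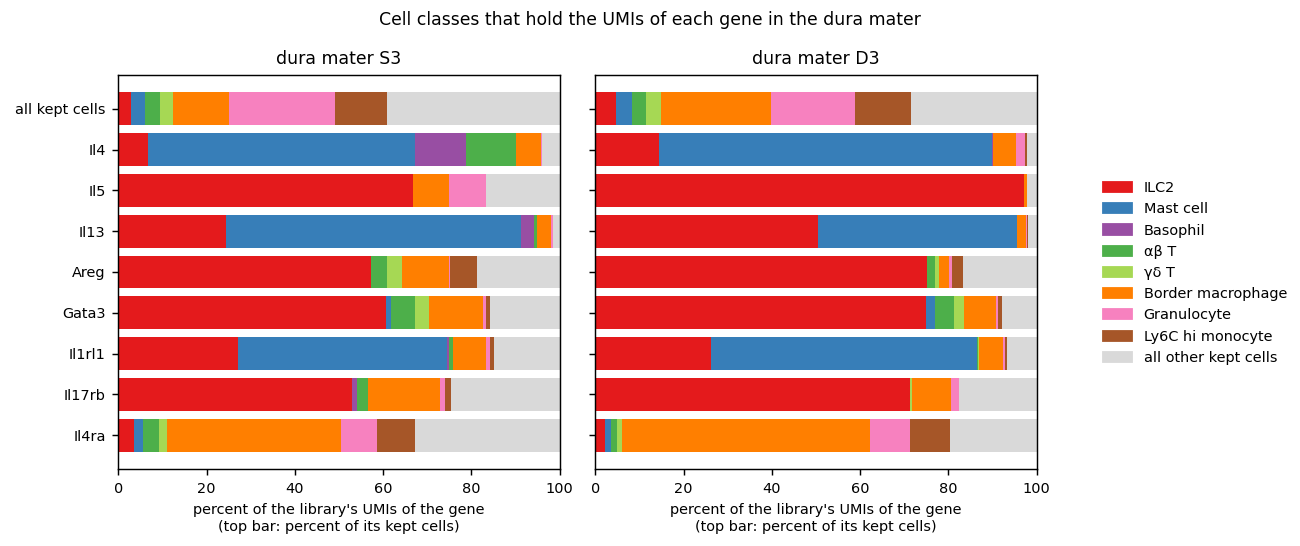
Percent of each gene's UMIs held by each cell class in dura mater S3 and D3 (horizontal axis, 0 to 100), with the percent of kept cells in each class as the top bar. ILC2s and mast cells are 4.69% and 3.61% of cells at D3 but hold most *Il4*, *Il5*, *Il13* and *Il1rl1* UMIs, whereas *Il4ra* lies mostly in border macrophages (56.2%).

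*Il4*, the cytokine that instructs TH2 cells and B cells, was highest in mast cells among dura mater classes of at least 20 cells. Dura mater mast cells held it at 258 CPM (225 to 294) at S3 and 297 CPM (265 to 332) at D3, with a UMI in 83 of 108 and 74 of 94 cells. In ILC2s it stood at 53.0 CPM (35.5 to 76.2) in brain S3, 24.8 (5.12 to 72.6) in brain D3, 33.3 (21.3 to 49.5) in dura mater S3 and 58.3 (44.4 to 75.2) in dura mater D3. Mast cells were thus above ILC2s in both dura mater libraries by more than the counting error. *Il4* UMIs were found in 20 of 76, 3 of 20, 16 of 96 and 33 of 122 ILC2s in the same order, and no ILC2 held more than 7 of them. In the dura mater that was 16.7% (9.84 to 25.6%) of ILC2s at S3 and 27.0% (19.4 to 35.8%) at D3, and 6.25% and 14.8% after thinning each cell to 2000 UMIs. No ILC2 or mast cell was too shallow for this. The mast cell shares were 76.9% and 78.7%, and 44.4% and 38.3% when thinned. γδ T cells held no *Il4* UMI in any library, which at D3 of the dura mater puts ILC2s at least 13.9-fold higher, taking 3 UMIs as the floor of an empty class. In αβ T cells, where TH2 cells would lie, *Il4* was at 12.2 CPM in brain S3, 23.3 in brain D3, 34.0 in dura mater S3 and 0 in dura mater D3, but single cells carried 33.3%, 96.0% and 78.0% of these UMIs in the first 3 libraries. Only 17 of 645, 2 of 145 and 7 of 115 αβ T cells there held any. Basophils, a classical *Il4* source, held 42 UMIs in 5 of 6 cells of dura mater S3, which gave 327.7 CPM (236 to 443), a level whose interval overlapped that of mast cells, and 31 of these UMIs were in 1 cell. B cells, used as the measure of free RNA, had an *Il4* UMI in 0.558% (0.152 to 1.42%) of dura mater S3 cells and in none of the 162 cells of dura mater D3, where 3 counts of the total, the limit a count of 0 allows, come to 1.85% and the exact upper bound is 2.25%. Their median depths of 5699 and 5258.5 UMIs were below those of ILC2s (6772 and 7186.5) and of mast cells (8097.5 and 10707.5).

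*Il5*, the survival factor of eosinophils, was found almost wholly in dura mater ILC2s. It is not listed for brain S3 and counted as 0 there, and neither the 76 ILC2s of brain S3 nor the 20 of brain D3 held a UMI, which by the same 3 counts allows shares of up to 3.95% and 15.0% with a UMI (exact upper bounds 4.74% and 16.8%). Dura mater ILC2s held 8 *Il5* UMIs at S3, 11.1 CPM (4.79 to 21.9), in 5 of 96 cells, and 141 at D3, 139 CPM (117 to 164), in 21 of 122 cells. The share of cells with a UMI was 5.21% (1.71 to 11.7%) and 17.2% (11.0 to 25.1%), and with every cell thinned to 2000 UMIs it was 2.08% and 6.56%. The intervals of the levels do not overlap, and those of the shares do by a narrow margin. Of the 8 UMIs at S3, 4 were in 1 cell. The D3 UMIs were uneven too, with 67 in 1 cell and 26 in the next. The first of these cells held 50353 UMIs in all, far above the ILC2 median of 7186.5, and also 115 *Il13* and 150 *Areg* UMIs. Mast cells held no *Il5* UMI in 108 and 94 cells, so ILC2s were at least 48.3-fold higher at D3. No *Il5* UMI was found in γδ T, αβ T or B cells of any library, and the whole of dura mater D3 held 4 *Il5* UMIs outside ILC2s.

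*Il13*, which acts on macrophages, epithelium and smooth muscle, was shared by ILC2s and mast cells. In ILC2s it stood at 112 CPM (85.3 to 143) in brain S3, 99.4 (51.3 to 174) in brain D3, 148 (122 to 179) in dura mater S3 and 588 (541 to 637) in dura mater D3. The last library stood apart from the other 3, which overlapped each other. The ILC2s with an *Il13* UMI were 10 of 76, 2 of 20, 23 of 96 and 33 of 122. In the dura mater the share of positive ILC2s was 24.0% (15.8 to 33.7%) at S3 and 27.0% (19.4 to 35.8%) at D3, or 16.7% and 19.7% when thinned, whereas the median UMIs of a positive cell were 1 and 8, and cells with at least 10 *Il13* UMIs were 3 and 15. The higher level thus lay more in the UMIs per positive cell than in the number of positive cells. Mast cells held *Il13* at 347 CPM (309 to 389) at S3 and 511 (468 to 556) at D3, in 56 of 108 and 63 of 94 cells. At S3 mast cells were above ILC2s, and at D3 ILC2s were above mast cells by a log2 ratio of 0.20 (0.03 to 0.37). At D3 1 ILC2 held 115 *Il13* UMIs and the next 83, whereas no mast cell held more than 38. The order at D3 thus depends on few ILC2s. γδ T cells held no *Il13* UMI in any library, and B cells held 1 UMI in each S3 library and none at D3.

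**Figure D2:**
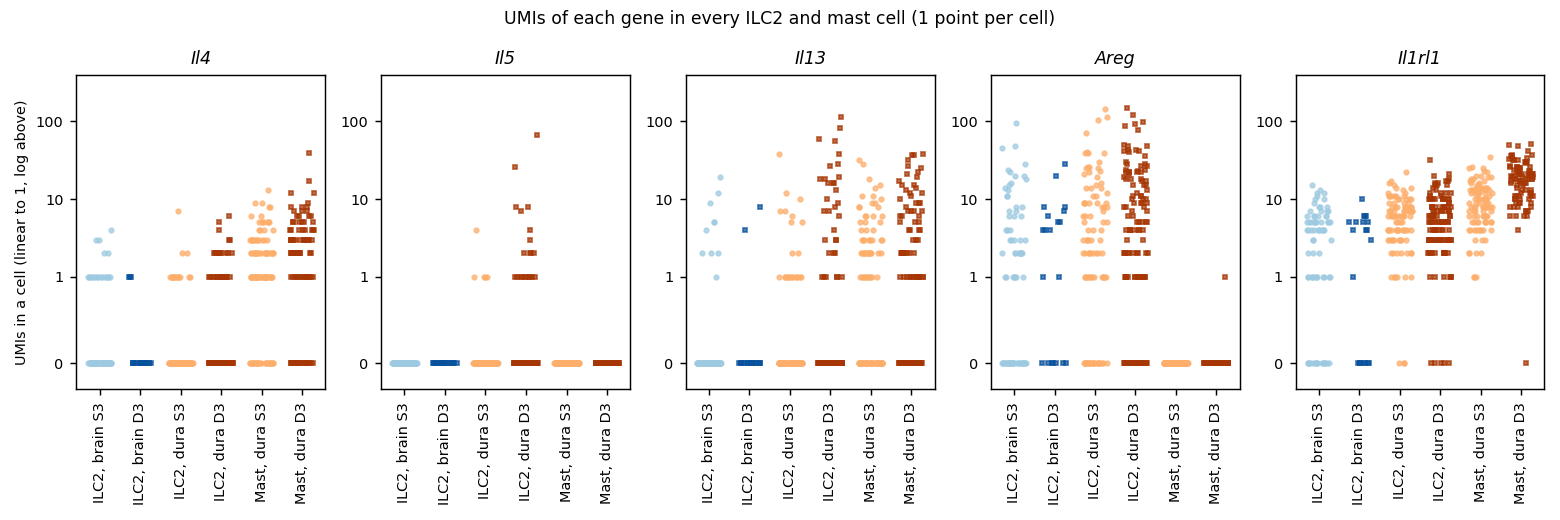
UMIs of each gene in every ILC2 and every dura mater mast cell, 1 point per cell, on a vertical axis that is linear to 1 and logarithmic above. *Il5* and *Il13* of dura mater D3 ILC2s reach 67 and 115 UMIs in a cell, whereas *Il4* of ILC2s never passes 7.

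The plot of UMIs in every cell also shows how the cytokines combined. Of the 122 dura mater D3 ILC2s, 21 held *Il5*, 33 *Il13* and 33 *Il4*, while 9 held both *Il5* and *Il13*, 11 both *Il4* and *Il13* and 4 both *Il4* and *Il5*. The cytokine genes were therefore detected together in a minority of the positive cells, at a depth that misses many molecules. *Il1rl1* and *Gata3* were detected in all cells with *Il5*, *Il13* or *Il4*, and *Areg* in 29 of the 33 with *Il13* and 20 of the 21 with *Il5*. Among all 122 of these ILC2s, *Gata3* was in 119, *Il1rl1* in 117 and *Areg* in 97, so most ILC2s held these genes with or without a cytokine UMI. At S3, 2 ILC2s held both *Il5* and *Il13* and 4 both *Il4* and *Il13*. Mast cells paired *Il4* and *Il13* more often in number, with 44 cells at S3 and 56 at D3 that held both.

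*Areg* was the growth factor of ILC2s and not of mast cells. ILC2s held it at 914 CPM (836 to 998) in brain S3, 836 (681 to 1016) in brain D3, 1517 (1428 to 1610) in dura mater S3 and 1762 (1681 to 1846) in dura mater D3. Both dura mater libraries were above both brain libraries, and 46 of 76, 13 of 20, 72 of 96 and 97 of 122 ILC2s had a UMI. The 108 mast cells of dura mater S3 held no *Areg* UMI, which puts ILC2s at least 429.8-fold higher, and the 94 of D3 held 1. B cells had an *Areg* UMI in 0.976% and 1.23% of cells at S3 and D3 of the dura mater. γδ T cells held *Areg* at 53.8 CPM in brain S3, 81.0 in brain D3, 88.3 in dura mater S3 and 30.7 in dura mater D3, in 5 to 10 cells of each library. They came second to ILC2s in both brain libraries and in dura mater S3, and in the last they did not differ beyond counting error from plasmacytoid dendritic cells. Regulatory T cells, which release amphiregulin in injured muscle and lung, were rare, but 6 of 10 in dura mater S3 and 3 of 6 in dura mater D3 held it, beside 1 of 25 in brain S3 and 0 of 5 in brain D3. Their 49 dura mater S3 UMIs gave 604 CPM (447 to 798), with 25 of them in 1 cell. Plasmacytoid dendritic cells of the dura mater held *Areg* in 9 of 39 and 11 of 20 cells, at 60.3 CPM (41.8 to 84.3) and 109 (73.4 to 155). Among infiltrating macrophages of brain D3, marked by *Arg1* and *Gpnmb*, 42 of 1231 held 543 *Areg* UMIs, which was 18.3 CPM (16.8 to 19.9) but 45.1% of the library's *Areg*, beside 8.38% in its ILC2s.

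*Gata3* was even across ILC2s. It stood at 1295 CPM (1201 to 1394) in brain S3, 1217 (1028 to 1431) in brain D3, 1208 (1129 to 1291) in dura mater S3 and 1272 (1204 to 1344) in dura mater D3, and 71 of 76, 19 of 20, 92 of 96 and 119 of 122 ILC2s had a UMI. All 4 intervals overlapped. *Gata3* also serves T cells at large, and αβ T cells held it at 65.4 to 95.8 CPM and γδ T cells at 57.1 to 81.4 CPM, far below ILC2s in each library. Between these T cell classes and NK and ILC1 cells the levels did not differ beyond counting error, except that αβ T cells stood above both others in dura mater D3. Mast cells were at 17.6 CPM (9.88 to 29.1) at S3 and 32.7 (22.7 to 45.7) at D3, with 14 of the 34 D3 UMIs in 1 cell.

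*Il1rl1*, the IL-33 receptor chain ST2, marked mast cells and ILC2s. Mast cells held it at 1259 CPM (1184 to 1337) at S3 and 1763 (1683 to 1845) at D3, in 108 of 108 and 93 of 94 cells. ILC2s held it at 552 CPM (492 to 618) in brain S3, 530 (408 to 677) in brain D3, 851 (785 to 921) in dura mater S3 and 787 (734 to 844) in dura mater D3, in 60 of 76, 13 of 20, 93 of 96 and 117 of 122 cells. Mast cells were above ILC2s in both dura mater libraries, and the dura mater ILC2s of each operation were above the brain ILC2s of the same operation. Among the other classes of at least 20 cells with markers of their own, conventional dendritic cells (cDCs) came next, at 17.7 CPM in brain S3, 12.4 in brain D3, 47.7 in dura mater S3 and 22.9 in dura mater D3. Smaller sets with few UMIs stood above them, with 16 *Il1rl1* UMIs in regulatory T cells each of brain S3, at 68.5 CPM (39.2 to 111), and of dura mater S3, at 197 (113 to 320), and 8 UMIs in the 6 basophils of dura mater S3. γδ T cells held 3 or fewer *Il1rl1* UMIs in any library, and B cells had a UMI in 1.39% of cells in dura mater S3 and 0.617% in dura mater D3.

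*Il17rb*, the chain that binds IL-25, divided ILC2s from mast cells. ILC2s held it at 69.5 CPM (49.2 to 95.4) in brain S3, 166 (101 to 256) in brain D3, 62.4 (45.5 to 83.5) in dura mater S3 and 113 (92.9 to 135) in dura mater D3. The D3 value was above the S3 value in each tissue, and the intervals did not overlap. ILC2s with a UMI were 22 of 76, 12 of 20, 30 of 96 and 66 of 122, and with cells thinned to 2000 UMIs the dura mater shares were 12.5% at S3 and 23.0% at D3. Mast cells held no *Il17rb* UMI, so ILC2s were at least 17.7-fold higher at S3 and 39.0-fold at D3. Plasmacytoid dendritic cells of dura mater D3 held 6 UMIs in 6 of 20 cells, at 21.7 CPM (7.98 to 47.3), and the other named classes of that library were below 3 CPM.

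**Figure D3:**
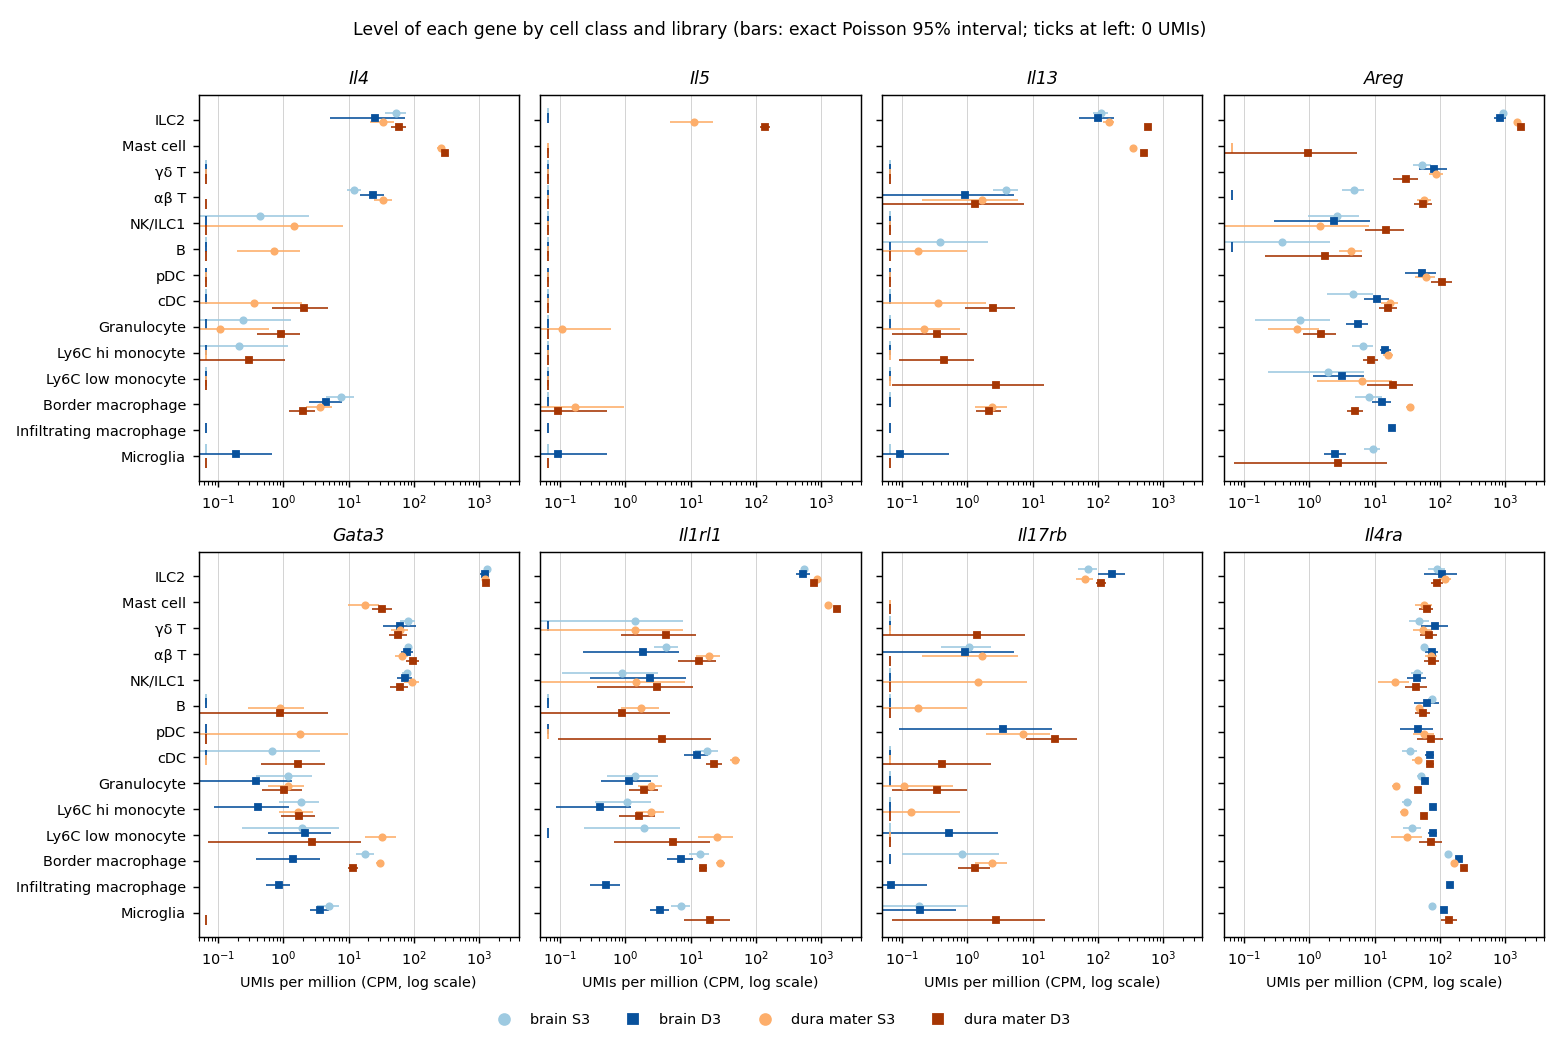
Level of each gene in CPM (horizontal logarithmic axis) by cell class and library, with exact Poisson 95% intervals as bars and classes with 0 UMIs as ticks at the left edge. Only classes of at least 20 cells are drawn. *Il5* and *Il17rb* are highest in ILC2s, *Il13* and *Il1rl1* in ILC2s and mast cells, *Il4* in mast cells of the dura mater, and *Il4ra* lies in every class.

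Among ILC2s of the dura mater, *Il5* and *Il13* were at least 2-fold higher at D3 than at S3 and none of the 8 genes was 2-fold lower, whereas *Gata3* and *Il1rl1* differed little. Over all 6943 genes with at least 20 UMIs in both libraries together, 2.81% were at least 2-fold higher and 2.55% at least 2-fold lower. The log2 ratio was 3.65 (2.63 to 4.89) for *Il5* and 1.99 (1.69 to 2.30) for *Il13*. *Il17rb* and *Il4* followed with 0.85 (0.34 to 1.38) and 0.81 (0.10 to 1.56), and *Areg* with 0.22 (0.11 to 0.33). *Areg* turned to -0.029 under a stricter gate for ILC2s and was 0.047 with cells thinned to 2000 UMIs, so its direction depended on the gate. The intervals of these 5 genes lie above 0, as do those of 5.57% of all genes, and those of *Gata3* at 0.08 (-0.05 to 0.20), *Il1rl1* at -0.11 (-0.27 to 0.04) and *Il4ra* at -0.41 (-0.85 to 0.03) hold 0. The median over the 8 genes was 0.51, beside 0.0045 over all genes. *Il5* was 3.78 without the cell richest in it in each library, 2.48 with each cell weighted equally and 1.56 with cells thinned to 2000 UMIs. The cells left out held 67 *Il5* UMIs at D3 and 4 of the 8 at S3, so the value of 3.78 rests on few S3 UMIs. *Rad50*, which lies between *Il13* and *Il5*, went from 72.1 to 98.8 CPM, a log2 ratio of 0.45 (-0.04 to 0.97), and *Kif3a* on the other side of *Il4* was at -0.49 (-1.62 to 0.65).

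In mast cells of the dura mater, 5 of the 8 genes reached 20 UMIs and none of them was past 2-fold, beside 2.07% of 7473 genes that were at least 2-fold higher and 2.17% that were at least 2-fold lower. The log2 ratio was 0.56 (0.35 to 0.77) for *Il13* and 0.49 (0.38 to 0.60) for *Il1rl1*, and both intervals lie above 0, as do those of 4.43% of all genes. *Il4* was at 0.21 (-0.05 to 0.46), *Gata3* at 0.89 (-0.02 to 1.87) and *Il4ra* at 0.15 (-0.41 to 0.72). The difference between ILC2s and mast cells in their D3 to S3 ratios was not tested.

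**Figure D4:**
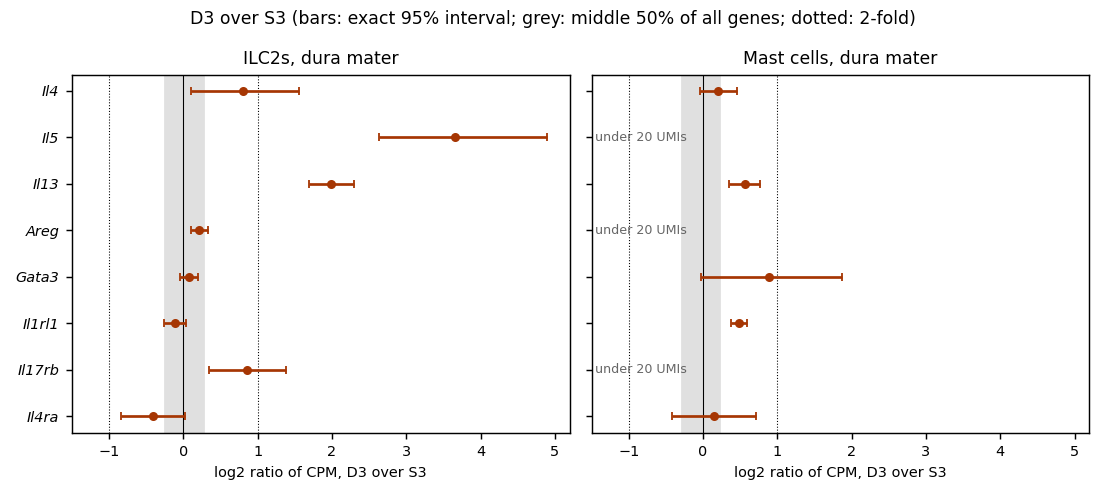
Log2 ratio of CPM, D3 over S3, of each gene in dura mater ILC2s and mast cells (horizontal axis), with exact 95% intervals as bars, the middle 50% of all genes in grey and dotted lines at 2-fold. *Il5* (3.65) and *Il13* (1.99) of ILC2s lie beyond the 2-fold line, whereas no mast cell gene does.

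Brain ILC2s were 2.10% of kept cells at S3 and 0.451% at D3, beside 8 and 1231 infiltrating macrophages. Of 7 genes with 20 UMIs, *Il17rb* was at least 2-fold higher at D3, with a log2 ratio of 1.25 (0.39 to 2.07), and *Il4* was at least 2-fold lower at -1.09 (-3.45 to 0.60), a value from 3 and 29 UMIs whose interval holds 0. Over 3913 genes these shares were 5.19% higher and 6.54% lower, larger than in the dura mater, with only 20 cells at D3. *Il13* was at -0.17 (-1.20 to 0.74) and *Areg* at -0.13 (-0.45 to 0.18). The interval of *Il13* lies wholly below that in dura mater ILC2s, and that of *Areg* overlaps its dura mater interval. The brain D3 *Il13* UMIs lay in 2 of 20 ILC2s, 8 in 1 and 4 in the other, so the *Il13* interval is too narrow. The difference between the tissues was not tested.

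Between the tissues at S3, dura mater ILC2s held more *Areg* and *Il1rl1* than brain ILC2s. The log2 ratios were 0.73 (0.58 to 0.89) and 0.62 (0.42 to 0.83), and *Gata3* was at -0.10 (-0.25 to 0.04) and *Il4* at -0.67 (-1.52 to 0.16). An *Il1rl1* UMI was found in 93 of 96 dura mater and 60 of 76 brain ILC2s. The part of other cells within the ILC2 gate in these ratios was not tested. None of the 7 genes with 20 UMIs was past 2-fold, beside 5.78% of 5972 genes higher and 2.83% lower. In αβ T cells the dura mater over brain ratio was larger, at 3.60 (2.94 to 4.30) for *Areg* and 2.16 (1.27 to 3.05) for *Il1rl1*, and 1.47 (0.88 to 2.05) for *Il4*, beside 8.1% of 10011 genes at least 2-fold higher. The *Areg* UMIs came from 10 of 115 dura mater and 9 of 645 brain αβ T cells, and the *Il4* ratio became -0.11 without the richest cell of each library. Regulatory T cells were 10 of the 115 and 25 of the 645, and held 49 of the 70 dura mater *Areg* UMIs and 2 of the 27 of the brain.

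*Il4ra*, through which IL-4 and IL-13 signal, was the gene of the receiving cells and was detected in every class. Among classes of at least 20 cells, border macrophages had the highest level in each library, at 135 CPM (121 to 151) in brain S3, 200.1 (184 to 217) in brain D3, 165 (155 to 176) in dura mater S3 and 234 (225 to 244) in dura mater D3. Each was above the next class by more than the counting error. Infiltrating macrophages of brain D3 stood at 142 CPM (138 to 146) and held 50.1% of that library's *Il4ra* UMIs, and microglia at 116 CPM (109 to 122), after an S3 interval of 68.0 to 82.7 CPM. ILC2s were at 89.6, 108, 122 and 91.9 CPM in the order of brain S3, brain D3, dura mater S3 and dura mater D3, and their intervals overlapped. Mast cells were at 56.5 and 62.5 CPM in the dura mater, with intervals that overlapped those of B cells at 48.2 and 54.5 CPM. The share of border macrophages with an *Il4ra* UMI was 74.9% at S3 and 88.0% at D3 in the dura mater, and 26.6% and 35.5% with cells thinned to 2000 UMIs, which left out 2 cells at S3 and 0 at D3. B cells express this receptor and are no measure of free RNA for it.

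*Il4ra* was higher at D3 than at S3 in many myeloid classes of both tissues. The interval of its log2 ratio lay above 0 in 6 of 12 classes of the dura mater and 6 of 11 of the brain, and below 0 in none, while 4.43% to 13.4% of all genes in a dura mater class and 4.88% to 22.0% in a brain class had an interval above 0. In the dura mater, granulocytes were at 1.15 (0.90 to 1.40), from 21.0 to 46.6 CPM, beside 5.52% of 10313 genes at least 2-fold higher in that class. Ly6C hi monocytes were at 1.02 (0.78 to 1.27), beside 2.08% of 10601 genes, Ly6C low monocytes at 1.21 (0.25 to 2.23), NK and ILC1 cells at 1.10 (0.14 to 2.14), cDCs at 0.64 (0.31 to 0.98) and border macrophages at 0.50 (0.39 to 0.61). In the brain, Ly6C hi monocytes went from 31.4 to 78.2 CPM, a log2 ratio of 1.31 (1.05 to 1.58), beside 3.96% of 10246 genes, and cDCs were at 1.01 (0.54 to 1.49), beside 3.88% of 8227. Ly6C low monocytes were at 1.04 (0.52 to 1.59), microglia at 0.63 (0.46 to 0.79), border macrophages at 0.57 (0.37 to 0.77) and αβ T cells at 0.41 (0.04 to 0.76). Brain granulocytes, at 0.23 (-0.02 to 0.49), had started from a higher S3 level of 50.6 CPM than those of the dura mater. The Ly6C hi class was led by *Ctsg*, *Prtn3*, *Elane* and *Mpo*, genes of early myeloid granules, beside its own markers.

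**Figure D5:**
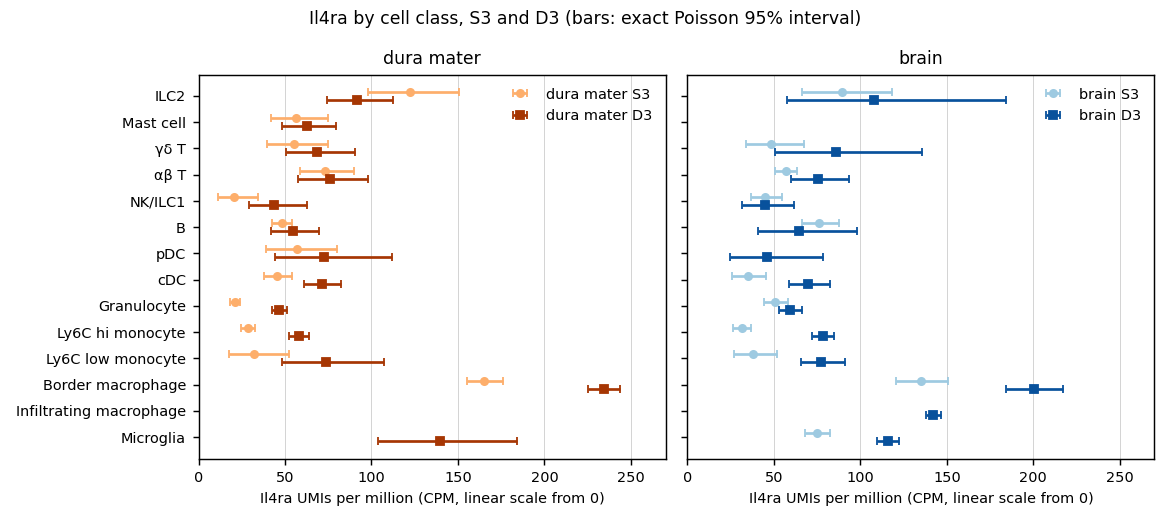
*Il4ra* level in CPM (linear horizontal axis from 0) by cell class of at least 20 cells at S3 and D3 in each tissue, with exact Poisson 95% intervals as bars. Border macrophages are highest, at 234 CPM in dura mater D3, and the D3 points of monocytes and cDCs in both tissues and of microglia in the brain lie to the right of the S3 points.

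Outside ILC2s and mast cells, *Areg* differed between D3 and S3 in both directions. *Gata3* was lower at D3 in border macrophages of both tissues, and *Il1rl1* in cDCs of the dura mater. *Areg* in border macrophages of the dura mater went from 34.5 to 5.08 CPM, a log2 ratio of -2.77 (-3.23 to -2.33), and *Gata3* from 30.2 to 11.7 CPM, a ratio of -1.37 (-1.72 to -1.04), beside 2.52% of 11732 genes at least 2-fold lower and 1.54% at least 2-fold higher. In border macrophages of the brain *Gata3* was at -3.67 (-5.61 to -2.21), from 43 to 4 UMIs, beside 5.72% of 9856 genes lower and 1.58% higher. These border macrophage UMIs were confined to few cells, and genes of lymphocytes moved with them. In dura mater S3, 36 of 438 border macrophages held *Gata3*, and 24 of the 36 also held *Il7r*, beside 5.97% of the other border macrophages. The cells with *Gata3* had a median of 19684.5 UMIs, the others 12008. In dura mater D3, 35 of 650 held *Gata3*, 20 of them with *Il7r*, beside 3.41% of the others. Of the 22 border macrophages with *Areg* at S3, 14 held *Il7r* and 12 the ILC2 class marker *Hs3st1*, beside 8.17% and 2.16% of the others. The part of lymphocyte RNA in these values was not tested.

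*Areg* was also lower at D3 in γδ T cells of the dura mater, with 64 and 22 UMIs, a log2 ratio of -1.53 (-2.30 to -0.81), beside 2.57% of 6915 genes at least 2-fold lower. The cells with a UMI were 7 of 101 and 8 of 89, and 33 of the S3 UMIs were in 1 cell. In Ly6C hi monocytes *Areg* went from 118 to 60 UMIs in the dura mater, a ratio of -0.88 (-1.36 to -0.42), and from 32 to 106 in the brain, a ratio of 1.14 (0.55 to 1.75). In plasmacytoid dendritic cells of the dura mater it was higher at D3, at 0.85 (0.09 to 1.60). Brain granulocytes held 3 *Areg* UMIs at S3 and 29 at D3, of which 17 were in 1 cell, and brain microglia 51 and 27, of which 46 and 20 were in 1 cell. *Il1rl1* in cDCs of the dura mater went from 47.7 to 22.9 CPM, a ratio of -1.06 (-1.54 to -0.60), beside 2.08% of 9230 genes at least 2-fold lower. The cDCs with a UMI were 59 of 140 and 33 of 109.

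Other genes of the pathway in dura mater ILC2s were described by lists, over genes with at least 20 UMIs. The ligand list left 1 gene, *Il2*, at 0.77, from 15 and 36 UMIs. None of 5 partner and related receptors was past 2-fold at D3, with a median log2 ratio of 0.21, among them *Il17ra*, the partner of IL-17RB, at 0.83 and *Crlf2*, the TSLP receptor, at -0.02. None of 8 signal proteins was, with a median of 0.18, including *Stat6*, the transcription factor below IL-4Rα, at -0.46. Among other cytokines of type 2 cells, *Csf2* (GM-CSF) was at 0.23, *Lif* at 0.29 and *Tnfsf11* (RANKL) at -0.46, again none past 2-fold. None of 6 transcription factors passed either, the highest being *Nfil3* at 0.97 and *Bcl11b* at 0.79, both needed for ILC2 development, and the lowest *Maf* at -0.82. Of 4 macrophage targets of IL-4 and IL-13, *Clec10a* was past 2-fold in ILC2s, from 3 to 47 UMIs. *Lyz2*, a gene of myeloid cells, had a UMI in 62.5% of these ILC2s at S3 and 78.7% at D3, and its part in the *Clec10a* value was not tested. In 12 genes of dissociation stress the heat shock genes *Hspa1a* and *Hspa1b* were lower, at -2.03 and -2.31, and the list median was -0.24. In mast cells *Csf2* went from 2 to 29 UMIs, a log2 ratio of 3.57 (1.58 to 6.68), 1 of 2 other cytokines with 20 UMIs, and none of 7 receptors, 8 signal proteins or 5 transcription factors was past 2-fold. The mast cell stress list held 2 genes past 2-fold, *Hspa1a* at 1.48 and *Atf3* at 1.57, and its median was -0.15. In brain ILC2s the stress list was lower in 3 of 12 genes, *Il17ra* was at 1.24 (0.10 to 2.31), and no gene of the ligand, signal, cytokine or transcription factor lists was past 2-fold.

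Ligands and target genes were measured in the same CD45+ cells, so stromal and epithelial sources of alarmins are outside the sort. *Tslp*, an alarmin that acts beside IL-33 and IL-25, lay in border macrophages at 75.1 CPM (64.5 to 86.9) in brain S3, 56.5 (48.1 to 66.0) in brain D3, 55.0 (49.1 to 61.4) in dura mater S3 and 45.0 in dura mater D3, in 32.5% to 48.0% of cells. *Il33* had 11 UMIs in border macrophages of dura mater S3, or 1.89 CPM (0.944 to 3.38). It had 31 at D3, or 2.92 CPM (1.98 to 4.14), and the intervals overlapped. *Il25* is listed in no library. Of 9 targets of IL-4 and IL-13 with 20 UMIs in dura mater border macrophages, *Arg1* was at least 2-fold higher at D3 and *Retnla* at least 2-fold lower. Of 11732 genes in that class, 1.54% were at least 2-fold higher and 2.52% lower. *Arg1* went from 3.27 to 6.58 CPM, or 19 to 70 UMIs, and 32 of the 70 were in 1 cell. *Retnla*, a classical marker of IL-4 exposure, went from 189 to 5.64 CPM. *Retnla* lay in 15 of 438 cells at S3 and 12 of 650 at D3, with 37.5% of the S3 UMIs in 1 cell. *Clec10a*, a lectin of such macrophages, was at 769 and 755 CPM. In brain border macrophages 2 of 7 targets were at least 2-fold higher, *Arg1* from 2.92 to 129.5 CPM and *Chil3* from 4.59 to 49.5, and *Ccl22* was lower, beside the 1.58% and 5.72% of all genes of that class given above. In 1 cell lay 48 of the 141 D3 *Chil3* UMIs and 38 of the 67 S3 *Ccl22* UMIs. The 1231 infiltrating macrophages of brain D3 held *Arg1* at 2058 CPM and *Chil3* at 190 CPM. The part of their RNA in the border macrophage values was not tested. *Arg1* marks the infiltrating macrophage class, against which border macrophages were set by their markers. Of the other targets, *Mrc1* is a border macrophage marker and *Cd209a* a cDC marker. The gate thus bears on the levels of these targets in border macrophages.

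Across 49 groups of at least 20 cells of a class and library, the genes whose levels ran most like each member were named by Pearson's correlation of log2(CPM + 10), as a description over groups that share libraries. *Il13* and *Il1rl1* were each other's near match (r = 0.948), with *Acer2* (0.950) and *Unc5b* (0.945) beside *Il13* and *Tmem158* (0.928) and *Ube2e2* (0.914) beside *Il1rl1*. *Il4* was followed by *Lgals7* (0.920), *Unc5b* (0.917) and *Gm973* (0.909). *Gata3* ran with *Bmp7* (0.934), *Il17rb* with *Ccr8* (0.925), *Neb* (0.916) and *Igsf5* (0.914), and *Areg* with *Paxbp1* (0.878), *Il17rb* (0.872) and *Hlf* (0.868). The matches of *Il4ra* were looser, with *Sbf2* (0.784), *Ralgds* (0.752) and *Tnfrsf11a* (0.740). Those of *Il5*, *Hba-a1* and *Hbb-bt* (both 0.88) and *Emcn* (0.861), rest on single cells, since 1721 of the 1732 *Hba-a1* UMIs of dura mater D3 ILC2s lay in 1 cell.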

How the data were processed

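CD45+ cells of dura mater and brain were sequenced by the authors with 10× Chromium 3′ reagents, mapped with Cell Ranger 3.1.0 to mm10 (GRCm38) and processed in Seurat 3.1.0, per the methods and labels. In the deposited tables each value is a natural log, ln(1 + 10000 × UMIs ÷ UMIs of that cell), for genes seen in at least 3 cells. Raw counts had been planned for, and UMIs were recovered from the values instead (100% whole within 1e-10, with the smallest value of a cell read as 1 UMI). A gene not listed in a library counted as 0. Libraries labelled CT were taken as the sham S3 of the study's legends. Recovered totals were 49003977 UMIs for brain S3, 115154317 for brain D3, 54749012 for dura mater S3 and 55887697 for dura mater D3.

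The cell filter kept between 1000 and 6000 genes and no more than 7% mitochondrial UMIs. Scrublet in scanpy 1.11.5 marked under 0.1% of barcodes by itself, so the highest scores were removed at 0.8% per 1000 barcodes. Cells were placed in 16 classes by the mean of markers scaled to their top 50 cells (score at least 0.2, margin 0.05), ILC2s with at most 1 UMI of *Cd3d* and *Cd3e*. Regulatory T cells were αβ T cells with a *Foxp3* UMI. UMIs were summed per class and library. Ratios have the exact 95% interval of 2 Poisson counts, a count of 0 was set to a floor of 3 UMIs in folds, and all-gene ratios have a pseudocount of 0.5. Named were the 8 genes, the genes of the pathway lists and the 3 most alike genes for each, some of which are not reported here. The members, lists and markers were chosen with earlier results of these data known. Alternatives were other gates, no cell filter, doublets kept, thinning to 2000 UMIs, equal cell weight, subtraction of the B cell level, median-ratio scaling, 2500 cells per library as in the study, a minimum of 100 UMIs and, added after seeing the data, removal of the richest cell and equal cell weight between tissues. Steps were tested on simulated data. Python 3.11.15, numpy 2.4.6, scipy 1.17.1, pandas 2.3.3 and matplotlib 3.10.9 were used. No protein sequences were used here.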

Additional observations from a re-analysis of the deposited data

Results flagged for a closer look

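*Areg* in Ly6C hi monocytes moved in opposite directions in the 2 tissues, with a log2 ratio of D3 over S3 of -0.88 in the dura mater and 1.14 in the brain. With 1 library per condition the difference between the tissues was not tested, and the part of single cells in it was not tested either. The richest cell held 23 of the 60 dura mater D3 UMIs and 30 of the 106 brain D3 UMIs.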

How the results depend on the processing

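Each condition has 1 library, so leaving out a replicate was not possible. No paired analysis was possible because no condition has a second library and no test was made. The log2 ratio of *Il5* in dura mater ILC2s was 3.65 and moved to 1.56 with cells thinned to 2000 UMIs and 2.48 with equal cell weight. That of *Il13*, 1.99, moved to 2.49 with 2500 cells drawn per library and 2.35 without the richest cell. *Areg* in dura mater ILC2s, 0.22, turned to -0.029 under the stricter gate and moved to 0.10 without the cell filter, 0.047 with thinning, 0.48 with 2500 cells and 0.35 without the richest cell. Thinning also moved ILC2 *Gata3* to 0.27 and *Il1rl1* to -0.27, and mast cell *Il4* to -0.18 and *Il4ra* to 0.84. Mast cell *Il13* was 0.31 without the cell filter and *Il1rl1* 0.62 under the looser gate. ILC2 *Il4ra* was -0.98 with the B cell level subtracted, but B cells express this gene and are no measure of free RNA for it. *Il4* in αβ T cells turned to -3.13 (brain, D3 over S3) and -0.11 (dura mater over brain) without the richest cell. Dura mater over brain also turned in direction for *Il4* of border macrophages (0.029 thinned) and, under the stricter gate, for *Areg* of γδ T cells (-0.26) and cDCs (-1.77). The cause of these moves was not tested. Of all recomputed ratios, 758 stayed within the counting interval, 81 moved beyond it and 6 turned in direction, and 2536 recomputed levels stayed and 392 moved. With a minimum of 100 in place of 20 UMIs, the genes at least 2-fold higher and lower were 20 and 7 in place of 195 and 177 in dura mater ILC2s, 16 and 16 in place of 155 and 162 in mast cells, 8 and 14 in place of 203 and 256 in brain ILC2s, and 35 and 12 in place of 345 and 169 between ILC2s of the tissues. Among the brain D3 ILC2s, 20 cells, a level under 24.8 CPM (3 UMIs) was not detectable.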
